A study of Danio rerio with 17 samples.

Results

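The genes described here are 97 zebrafish genes for enzymes that oxidise, reduce or conjugate foreign compounds, steroids, bile acids, retinoids and aldehydes. They were chosen by name: a gene belonged if a probe set carried its symbol alone and that symbol began with a stem of one of these enzyme families (cyp, gst, ugt, sult, aldh, adh, hsd, akr, fmo, ephx, aox or por). The P450 genes cyp2k6 and cyp2k22 were left out by the same rule. The 97 genes were read by 125 of the 15502 tested probe sets and stand among 8793 named genes. Where a gene had more than 1 probe set, as 20 of them did, the one with the highest mean over the arrays was used. By family there were 24 P450 genes of families 1 to 3, 2 of family 4 and 20 other P450 genes, 8 glutathione transferase genes, 1 glucuronosyltransferase gene, 8 sulfotransferase genes, 12 aldehyde dehydrogenase genes, 3 alcohol dehydrogenase genes, 13 hydroxysteroid dehydrogenase genes, 3 aldo-keto reductase genes, 1 flavin monooxygenase gene and 2 epoxide hydrolase genes. No probe set named an aldehyde oxidase gene or por alone.

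The study crossed sex with dietary carbohydrate and measured total liver RNA on Affymetrix zebrafish arrays, 1 fish to an array. Females on 0% carbohydrate were fish 7, 8, 10, 25 and 27, and females on 25% were fish 3, 20, 24, 49 and 51. Males on 0% were fish 11, 26, 30 and 66, and males on 25% were fish 52, 53 and 54. The groups follow the sample titles, and the series text swaps the counts of the male groups. Strain, age and time on the diets are not given in the sources used here, and the labels name no mutation and no other treatment. Values are log2 signals, differences are female minus male or 25% minus 0% with the standard error of the model, and a gene was called when its limma p, adjusted over all 15502 probe sets, was under 0.05. Folds are those log2 differences turned back to a ratio.

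The liver handles lipid-soluble compounds in steps. Cytochrome P450 and flavin monooxygenases add an oxygen, dehydrogenases and reductases move the product between alcohol, aldehyde and acid, and transferases then attach glutathione, glucuronic acid or sulfate so that the product can leave in bile or urine. Many of the same families also act on the body's own molecules: they open and close steroid hormone action, make bile acids from cholesterol, and switch on or break down vitamin D and retinoic acid. In rodents several of these liver enzymes differ between males and females.

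Hepatocyte markers were high in every sample: the mean of the 12 measured markers lay between 11.72 and 12.36 per fish, and fabp10a, the liver fatty acid binding protein, between 12.89 and 13.57. Array medians lay between 3.52 and 3.61. The table holds no detection calls, so a gene whose signal sits near its array's median may not have been detected, and folds that start from such signals are rough. Male fish 11, 66 and 52 stood apart. The mean of 14 measured intestinal markers was 8.47, 8.34 and 8.79 in them and at most 5.97 in the other 14 fish, and fabp2, the intestinal fatty acid binding protein, was at 11.20, 11.67 and 12.23 against at most 6.12. The mean of 5 stroma and vessel markers was also highest in these fish, at 7.60, 6.58 and 7.93. Other tissue markers were high in some of them: the mean of 14 exocrine pancreas markers was highest in fish 11 and 66, at 11.59 and 11.30, with female fish 24 next at 10.87. The means of 3 endocrine pancreas and 4 muscle markers were highest in fish 66 and 52, at 9.27 and 9.79 and at 6.14 and 7.71. Endocrine markers were nearly as high in female fish 20 and 24, at 8.99 and 8.92, while muscle markers were at most 5.09 elsewhere. Ovary markers set the female diet groups apart: the mean of 13 lay between 3.47 and 4.93 in females on 0%, between 5.68 and 6.58 in females on 25% and between 3.12 and 3.49 in males. In a tissue sample, fewer cells of a type and less RNA per cell cannot be told apart.

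Of the 97 genes, 61 lay above their array's median on all 17 arrays and 15 on none. These counts are a description, because the probe set with the highest mean had been taken for the 20 genes with more than 1. The 15 with no signal above an array median included the aromatase genes cyp19a1a and cyp19a1b, which make oestrogen in ovary and brain, and hsd3b2, a steroid-making dehydrogenase. Among the genes that gave the brightest probe set of their family, cyp1a, which oxidises flat aromatic pollutants, lay between 9.86 and 11.08 over the 17 fish. Gstt1a, a theta-class glutathione transferase, lay between 9.81 and 11.56, and aldh6a1, an enzyme of valine breakdown, between 8.15 and 10.88. Adh5, the formaldehyde-clearing alcohol dehydrogenase, lay between 8.82 and 10.31. Signals of different probe sets depend on their probes as well as on the RNA, so these ranges say how far each gene moved between fish and give no order of abundance.

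Enzyme genes varied more from fish to fish within a group than most probe sets did. The pooled SD within the 4 groups had a median of 0.40 over the 97 genes and 0.18 over all probe sets, and it was 1 or more for 11 genes (11.3%) against 2.01% of all probe sets. The probe sets of the 97 genes were in part chosen for brightness and those they are set against were not, and the part of brightness in this spread was not tested. The most variable was cyp24a1, the enzyme that breaks down active vitamin D, at 1.64. It was followed by sult6b1, a sulfotransferase gene, at 1.4997 and by cyp3a65, a CYP3A gene of fish liver and gut, at 1.34. The glucuronosyltransferase gene ugt2a1 stood at 1.25, and its 17 values ran from 2.597 in male fish 53 to 5.83 in female fish 7 with every group spread over most of that range. Aldh1a2, which makes retinoic acid, stood at 1.24, and hsd11b2, which inactivates cortisol, at 1.18. The other 5 were gsto2, cyp2aa4, cyp2k18, cyp2r1 and gsto1. For sult6b1, aldh1a2, gsto1 and gsto2 the 3 highest arrays were male fish 11, 52 and 66, whose part in the spread was not tested. The lowest and highest fish lay at least 2 apart on the log2 scale for 30 of the 97 genes.

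**Figure D1:**
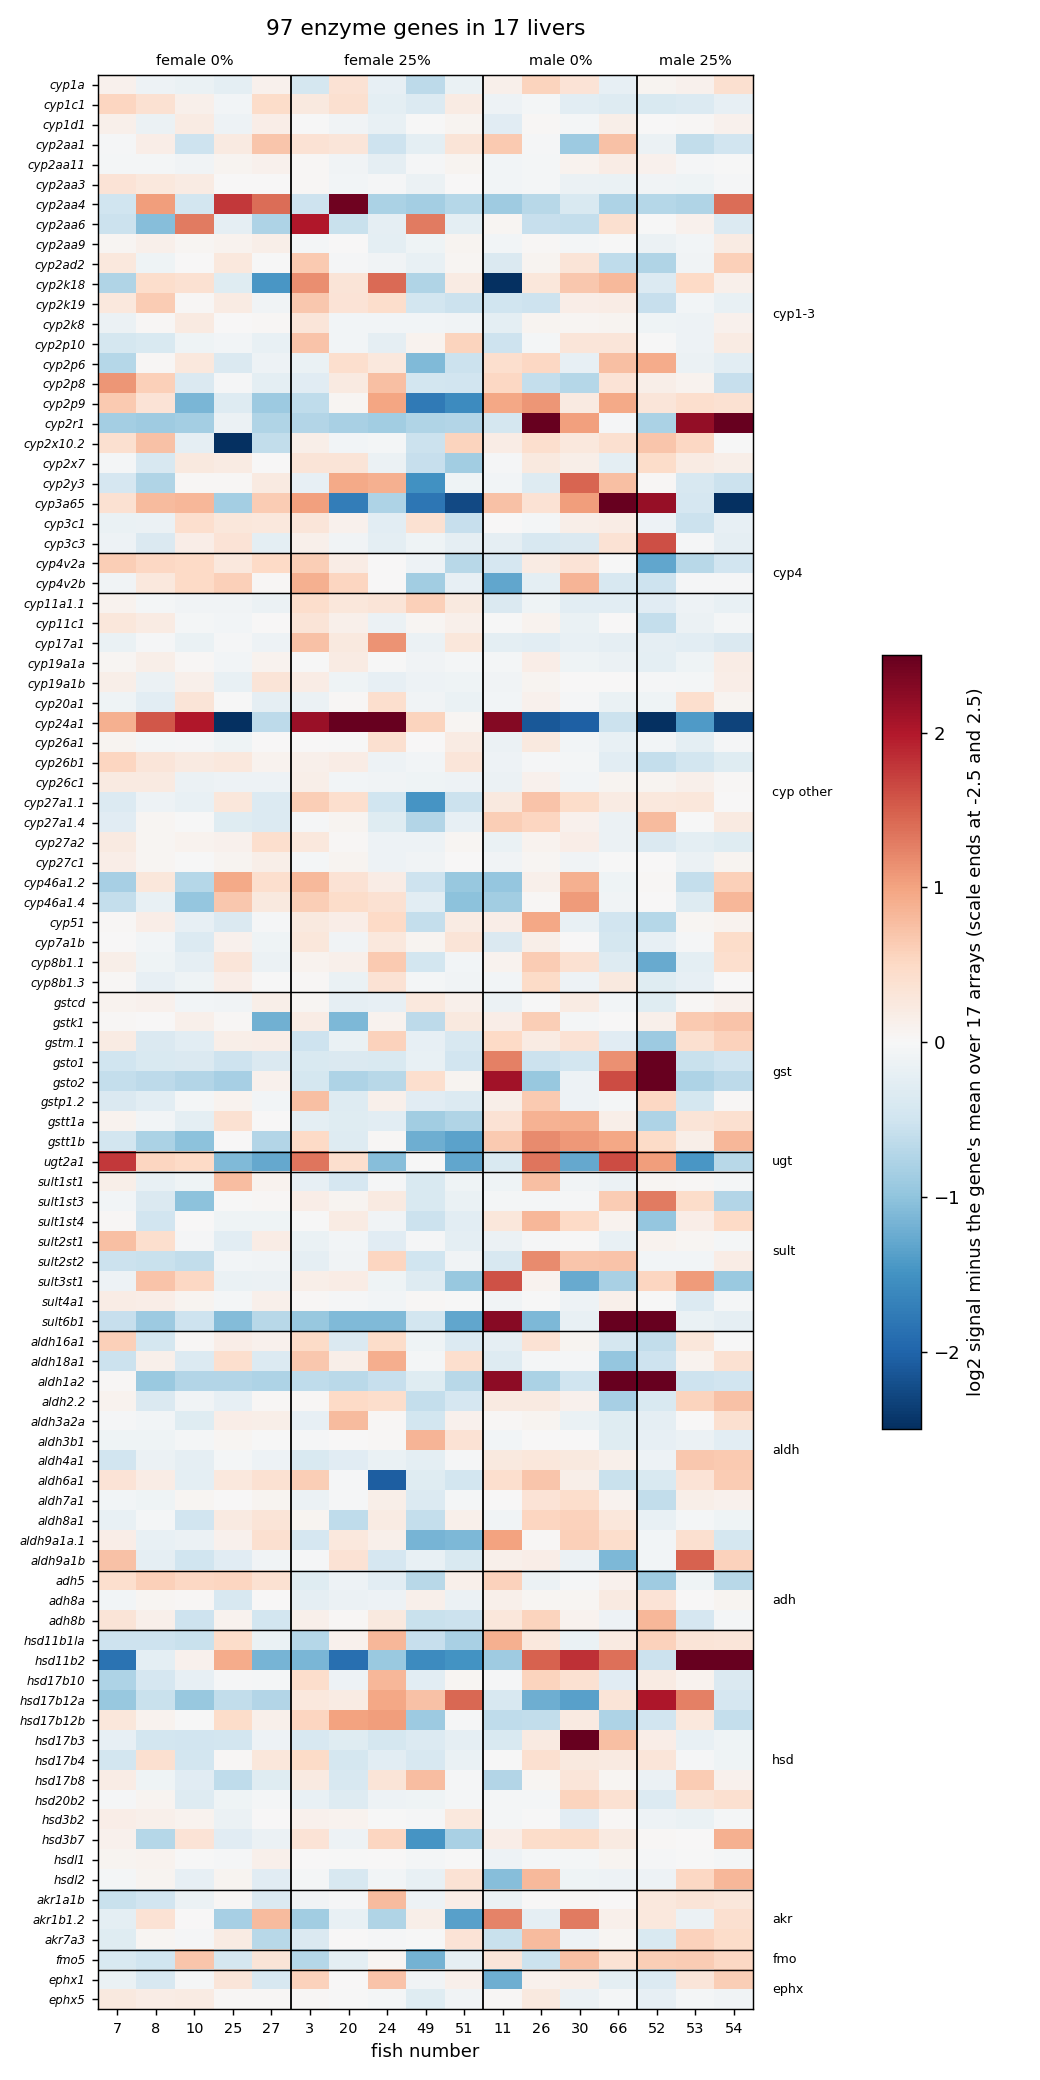
Log2 signal of each of the 97 enzyme genes in each of the 17 livers, shown as the difference from that gene's mean over all arrays, with genes in rows by family and fish in columns by sex and diet. The colour scale ends at -2.5 and 2.5. The strong colours often sit in single fish or few fish, as for aldh1a2 and sult6b1. For cyp3a65 they are spread over many fish. For hsd11b2 and cyp24a1 they are shared by most fish of some groups.

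The map of all 97 genes by fish shows few rows that split cleanly by column block. Between the sexes, 11 of the 97 genes (11.3%) differed with diets averaged, against 13.6% of all probe sets. Enzyme genes were thus called about as often as probe sets at large. Of the 11, 6 were higher in females, against a background of 8.02%, and 5 were lower, against 5.57%. The median size of the enzyme gene differences was 0.23, against 0.12 for all probe sets, without more calls. Their spread within groups was larger too, and the part of that spread and of brightness in these sizes was not tested. The enzyme genes leaned slightly towards males, with 42 of 97 (43.3%) above 0 against 53% of all probe sets. Their median was -0.08, against 0.01. The size of this lean depended on the scaling and on male fish 11, 52 and 66. Without those fish 34 of 97 lay above 0, with a median of -0.10, against 7734 of 15502 probe sets. With all fish and each array centred on its median, 39 of 97 lay above 0 against 7080 of 15502 probe sets. With quantile normalization 43 of 97 did, against 7928 of 15502, with medians of -0.03 and 0.00. Of the 12 hepatocyte markers 4 (apoa2, fabp10a, fgb and fgg) were also lower in females and none was higher, with a median of -0.17, and their part in the enzyme differences was not tested.

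In most of the conjugating, dehydrogenase and reductase families more genes lay lower in females than higher. Among glutathione transferase genes 7 of 8 lay below 0, with a median of -0.53, and 1, gstt1b, was called. Among hydroxysteroid dehydrogenase genes 10 of 13 lay below 0, with a median of -0.22 and 1 call, and 8 of 12 aldehyde dehydrogenase genes did, with a median of -0.19 and 1 call. Sulfotransferase genes had 6 of 8 below 0 and aldo-keto reductase genes 3 of 3, with no call in either family. Sulfotransferase and aldo-keto reductase medians were -0.20 and -0.21. All 5 medians kept their sign under each scaling, but quantile normalization brought those of the aldo-keto reductase, aldehyde dehydrogenase, hydroxysteroid dehydrogenase and sulfotransferase genes to -0.08, -0.07, -0.14 and -0.13. Without male fish 11, 52 and 66 the glutathione transferase median was -0.28, with 6 of 8 genes below 0, and the aldo-keto reductase and aldehyde dehydrogenase medians were -0.51 and -0.32. The hydroxysteroid dehydrogenase median was then -0.30, and the sulfotransferase median -0.13 with 5 of 8 genes below 0. Among the smallest families the flavin monooxygenase gene fmo5 was at -0.66, and both family 4 P450 genes lay above 0 with a median of 0.52, or 0.22 without those fish. The glucuronosyltransferase gene ugt2a1 was at 0.01, or 0.51 without those fish. Of the alcohol dehydrogenase genes 2 of 3 lay below 0, and adh5 was at 0.33. The P450 genes outside families 1 to 4 lay above 0 in 14 of 20 cases with a median of 0.06, but without male fish 11, 52 and 66 only 8 of 20 did and the median was -0.05.

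Hsd11b2, the dehydrogenase that turns cortisol into cortisone and in fish also takes part in making 11-ketotestosterone, had the lowest female minus male difference of all 97 genes. Its signal in females on 0% was 3.68, 5.28, 5.64, 6.44 and 4.37, and in females on 25% 4.38, 3.65, 4.60, 3.95 and 4.04, in the order of fish given above. In males it was 4.64, 6.99, 7.34 and 6.91 on 0% and 4.99, 8.49 and 8.49 on 25%. The high males were fish 26, 30, 66, 53 and 54, all above every female, while fish 11 and 52 lay within the female range. The difference was -2.29 ± 0.54 (4.91-fold lower in females, 10 females and 7 males, adjusted p = 0.0115), and the call was kept when any 1 fish was left out. Fish 11 and 52 are among the fish with high intestinal markers. Without fish 11, 52 and 66 the difference was -3.23 ± 0.39 (adjusted p = 0.000498).

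Cyp2r1, whose human counterpart adds the first hydroxyl group to vitamin D in the liver, showed a similar split among males. Females lay between 2.79 and 3.52 with a median of 2.89, below the median of their arrays. Male fish 26, 30, 53 and 54 were at 6.61, 4.71, 5.88 and 6.20, and male fish 11, 66 and 52 at 3.23, 3.65 and 2.88. The 4 males without high intestinal markers were all above every female, and fish 11 and 52 overlapped them. The difference was -1.83 ± 0.48 (3.56-fold lower in females, adjusted p = 0.0195). It did not pass without male fish 53 or without male fish 54 (highest adjusted p = 0.0587), and it was -2.91 ± 0.25 without fish 11, 52 and 66 (adjusted p = 5.66e-05). The part of the intestinal markers in the low hsd11b2 and cyp2r1 values of fish 11 and 52 was not tested.

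Gstt1b, a theta-class glutathione transferase gene, was lower in females in every setting tried for diets averaged. Females on 0% were at 7.42, 7.09, 6.87, 7.91 and 7.16 and males on 0% at 8.54, 9.07, 8.96 and 8.86, with no overlap. Females on 25% ran from 6.54 to 8.38 and males on 25% were at 8.37, 8.02 and 8.72, so that the highest of these females lay among the males. The difference was -1.26 ± 0.24 (2.40-fold, adjusted p = 0.0029), and -1.34 ± 0.31 without fish 11, 52 and 66. Fish 11, 52 and 66 were not apart from the other males for this gene.

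Aldh4a1, the mitochondrial dehydrogenase of proline breakdown, differed less in size but tightly. Females ran from 5.74 to 6.19 with a median of 6.02. Males were at 6.45, 6.51, 6.46 and 6.35 on 0% and at 6.08, 6.89 and 6.87 on 25%, so that fish 52 alone lay within the female range. The difference was -0.52 ± 0.11 (1.44-fold lower in females, adjusted p = 0.00403) and was kept when any 1 fish was left out. Cyp27a1.4, a relative of the mammalian sterol hydroxylase that starts the side-chain route to bile acids, ran from 5.84 to 6.64 in females and from 6.44 to 7.36 in males. Its ranges overlapped, its difference was -0.52 ± 0.15 (adjusted p = 0.0291), and it did not pass without female fish 7 or without male fish 11, 26 or 52 (highest adjusted p = 0.0892). It also did not pass under quantile normalization, with array weights, with its probe sets averaged or without fish 11, 52 and 66, with adjusted p of 0.116, 0.0697, 0.0615 and 0.0809.

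The 6 genes higher in females differed by 0.26 to 0.64. Several of them gave signals near the array medians. Cyp27a2 lay below 3.52, the lowest array median, in female fish 24 and male fish 11, 52, 53, 54 and 66. Cyp26b1 lay above its array's median on 15 of 17 arrays, and cyp1c1 on all 17, at 3.81 to 4.72. Cyp26b1, which breaks down retinoic acid, ran from 3.86 to 4.52 in females with a median of 4.18 and from 3.38 to 3.95 in males with a median of 3.71. Most females lay above all males, and fish 24 and 49, at 3.86 and 3.92, did not. The difference was 0.47 ± 0.08 (1.39-fold, adjusted p = 0.000908), kept when any 1 fish was left out and at 0.39 ± 0.09 without fish 11, 52 and 66. The other 3 probe sets of cyp26b1 differed by 0.22, 0.20 and 0.06 and did not pass, and the last lay above the array median on 0 of 17 arrays.

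Cyp4v2a belongs to the P450 family that oxidises the far end of fatty acids. It ran from 3.83 to 5.15 in females and from 3.22 to 4.87 in males, with fish 52 lowest of all, and the sexes overlapped. The difference was 0.64 ± 0.17 (adjusted p = 0.0201), and it did not pass without fish 52 (adjusted p = 0.0637). Cyp1c1, a P450 gene of the same family as cyp1a, ran from 3.86 to 4.72 in females and from 3.81 to 4.14 in males, and differed by 0.43 ± 0.11 (adjusted p = 0.022). It too did not pass without fish 52 (adjusted p = 0.0543). Its other probe sets differed by -0.03 and 0.09, with an adjusted p of 0.111 for the mean of all its probe sets. Both of those other probe sets lay above the array median on 0 of 17 arrays and may not have detected the gene. Cyp27a2 ran from 3.51 to 4.05 in females and from 3.28 to 3.80 in males, with a difference of 0.26 ± 0.07 (adjusted p = 0.0328) that passed in 9 of 17 refits with 1 fish left out and not without female fish 3, 7, 20 or 51 or male fish 11, 52, 54 or 66 (highest adjusted p = 0.0789). Without fish 11, 52 and 66 none of cyp4v2a, cyp1c1 and cyp27a2 passed, with adjusted p of 0.183, 0.118 and 0.242.

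The remaining genes higher in females were cyp11a1.1 and cyp17a1, which carry out the opening steps of steroid hormone synthesis in gonad and interrenal tissue. Both were dim: cyp11a1.1 lay above its array's median on 0 of 17 arrays and cyp17a1 on 1. Cyp11a1.1 was at 2.93, 2.80, 2.75, 2.74 and 2.69 in females on 0%, at 3.29, 3.12, 3.16, 3.43 and 3.08 in females on 25%, and between 2.48 and 2.74 in males. Females on 25% thus stood above every other fish. The sex difference was 0.38 ± 0.06 (adjusted p = 0.000634) and held in all refits with 1 fish left out.

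Cyp17a1 was at 2.601, 2.74, 2.59, 2.74 and 2.63 in females on 0%, at 3.49, 3.00, 3.89, 2.62 and 3.05 in females on 25%, and between 2.39 and 2.58 in males. Its 10 females all lay above all 7 males. It was the only enzyme gene of the 97 (1.03%) whose sexes did not overlap in either direction, against 1.63% of all probe sets. Its difference of 0.43 ± 0.13 (adjusted p = 0.0409) passed in only 4 of 17 refits with 1 fish left out, those without female fish 20, 24, 49 or 51 (highest adjusted p of the rest 0.0764). It did not pass under quantile normalization, with each array centred on its median or without fish 11, 52 and 66, with adjusted p of 0.067, 0.0639 and 0.133. Its second probe set differed by 0.03, but lay above the array median on 0 of 17 arrays. The ending of the first probe set's name marks probes that can match several transcripts. By group the ovary markers moved with both genes: 13 of 13 were higher in females, and their mean was highest in the females on 25%. They did not do so in every fish. Fish 49 had an ovary marker mean of 6.07 and cyp17a1 at 2.62. Fish 51 had the highest ovary marker mean, 6.58, and the lowest cyp11a1.1 of its group, 3.08. The part of those markers in the cyp11a1.1 and cyp17a1 differences was not tested. Of 4 measured kidney and interrenal markers, pax2a and slc20a1a were called for sex, 1 higher and 1 lower in females. Star and mc2r did not pass. Mc2r lay between 2.82 and 3.30 in all fish, below the array medians, and may not have been detected. The part of interrenal tissue in either gene was not tested.

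**Figure D2:**
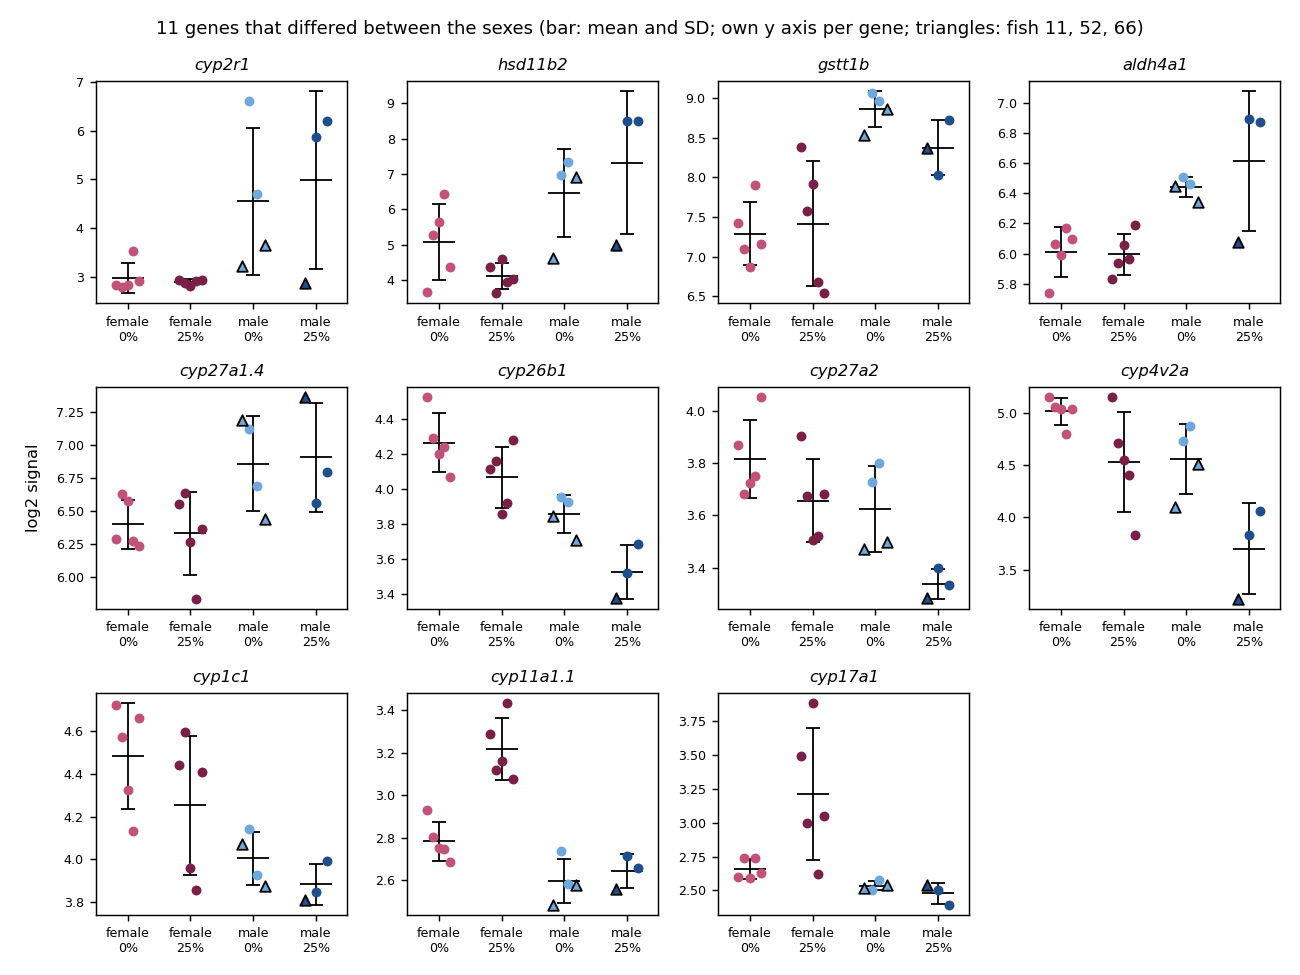
Log2 signal of the 11 enzyme genes that differed between the sexes, one point per fish, by sex and carbohydrate, with the group mean and SD as bars and a separate y axis for each gene. Triangles mark male fish 11, 52 and 66. For hsd11b2 and cyp2r1 the males split into a high and a low set, for gstt1b and aldh4a1 most males stand together above the females, and for cyp11a1.1 the females on 25% stand above all other fish.

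Some of the largest sex differences did not pass the test, and 2 of them differed by more than 2 on the log2 scale. Cyp24a1 was at 6.93, 7.60, 8.07, 3.32 and 5.40 in females on 0% and at 8.22, 8.69, 8.72, 6.61 and 6.09 in females on 25%. Males were at 8.35, 3.95, 4.02 and 5.51 on 0% and at 3.10, 4.63 and 3.74 on 25%. Fish 11 was the highest male, and female fish 25 and 27 lay within the 3.10 to 5.51 range of the other males. The difference was 2.32 ± 0.75 (adjusted p = 0.0529), 2.88 ± 0.78 without fish 11, 52 and 66 (adjusted p = 0.0361), and 1.46 on the gene's second probe set.

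Sult6b1 was between 3.95 and 4.78 in females, at 7.504, 4.12, 5.05 and 9.002 in males on 0% and at 9.57, 5.08 and 5.02 in males on 25%. The high values were those of fish 11, 66 and 52, and the other males lay within or just above the female range. The difference was -2.12 ± 0.69 (adjusted p = 0.0537) and -0.45 ± 0.18 without those fish. In 4 of the 97 enzyme genes (4.12%) the 3 highest arrays were exactly male fish 11, 52 and 66. That share was close to the 3.79% of all probe sets, so the pattern was not particular to enzyme genes. The 4 were sult6b1, aldh1a2, and the omega-class glutathione transferase genes gsto1 and gsto2. Aldh1a2 was at 6.25, 7.12 and 6.9999 in fish 11, 66 and 52 and at most 4.04 in the other 14. Gsto1 was at 4.08, 3.97 and 6.36 against at most 2.65, and gsto2 at 6.66, 6.18 and 7.43 against at most 4.96.

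These 4 genes had female minus male differences of -2.12, -1.44, -0.98 and -0.99 with all fish and of -0.45, -0.04, 0.12 and 0.21 without fish 11, 52 and 66, and none was called in either fit. Gsto1 and gsto2 are neighbours in the RefSeq gene order. The intestinal markers were high in exactly the same fish, and vil1, the brush-border protein villin, was at 6.51, 6.48 and 7.16 in fish 11, 66 and 52 and at most 2.44 elsewhere. Stroma and vessel markers were highest in these fish too, and pancreas and muscle markers in pairs of them. The part of any of these markers in the 4 genes was not tested. Conversely, 2 of the 97 genes (2.06%), cyp11a1.1 and cyp2ad2, had their 3 lowest arrays in these fish, close to the 2.35% of all probe sets. Cyp11a1.1 was dim, and fish 66 and 30 were nearly level, at 2.577 and 2.583. Other probe sets of cyp2ad2 gave another order. On the second, female fish 24 at 9.76 lay below fish 11 at 9.86, and on the third male fish 30 was lowest at 2.95.

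**Figure D3:**
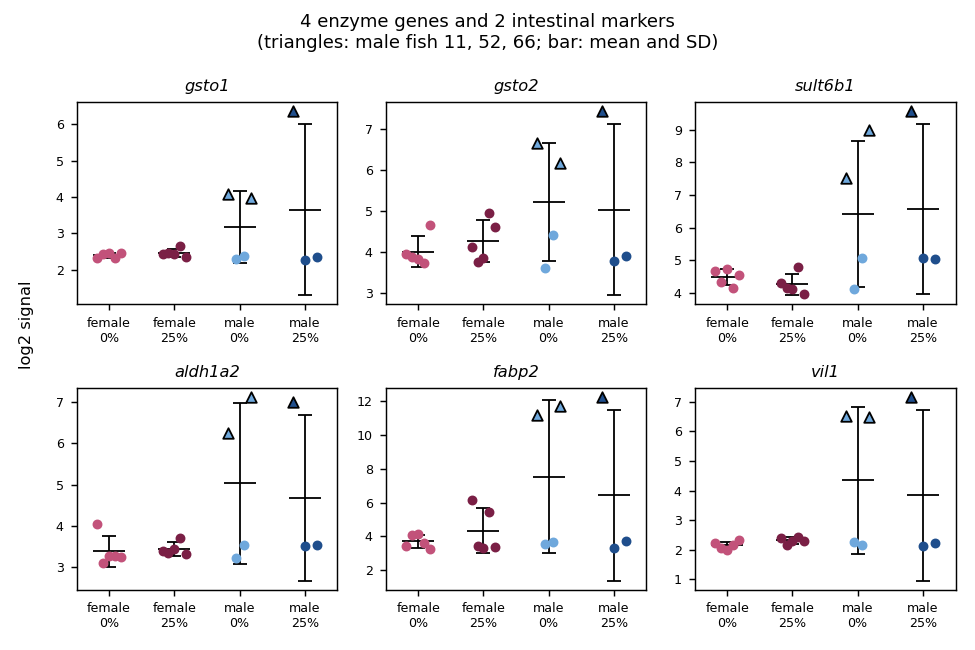
Log2 signal per fish of gsto1, gsto2, sult6b1 and aldh1a2 and of the intestinal markers fabp2 and vil1, by sex and carbohydrate, with the group mean and SD as bars. Triangles mark male fish 11, 52 and 66, which are the 3 highest fish in every panel.

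Leaving out fish 11, 52 and 66 left 2 males on each diet and changed which enzyme genes were called. The count went from 11 to 13, against 9.37% of all probe sets, and the split from 6 higher and 5 lower to 3 higher, against 4.13%, and 10 lower, against 5.24%. Called in both fits were 6 genes: hsd11b2, cyp2r1, gstt1b, aldh4a1, cyp26b1 and cyp11a1.1. Called only with all 17 fish were 5, cyp17a1, cyp1c1, cyp27a1.4, cyp27a2 and cyp4v2a. Called only without the 3 fish were 7: cyp24a1, higher in females, and 6 that were lower in females.

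Among those 6, gstt1a went from -0.50 to -0.84 ± 0.13 (adjusted p = 0.00231). In the remaining males it was at 11.54, 11.56, 11.003 and 11.07 and in females between 9.81 and 11.06, while fish 52 was at 9.90. The sulfotransferase genes sult2st2 and sult1st4 were at -0.71 ± 0.17 and -0.64 ± 0.14 (adjusted p of 0.0227 and 0.0109). Hsd20b2, which in zebrafish reduces cortisone to an excreted product, was at -0.43 ± 0.10 (adjusted p = 0.0196), hsdl2 at -0.58 ± 0.16 (adjusted p = 0.0423), and aldh7a1, an enzyme of lysine breakdown, at -0.30 ± 0.08 (adjusted p = 0.0261). These calls rest on 4 males, fish 26, 30, 53 and 54, which share the group's spread with the females in the fit. Their hepatocyte marker means, 12.12, 12.29, 12.36 and 12.32, lay above those of all females, which reached at most 12.07. Fish 11, 66 and 52, at 11.91, 11.84 and 11.81, lay within the female range. The part of hepatocyte marker level in the changed calls was not tested.

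**Figure D4:**
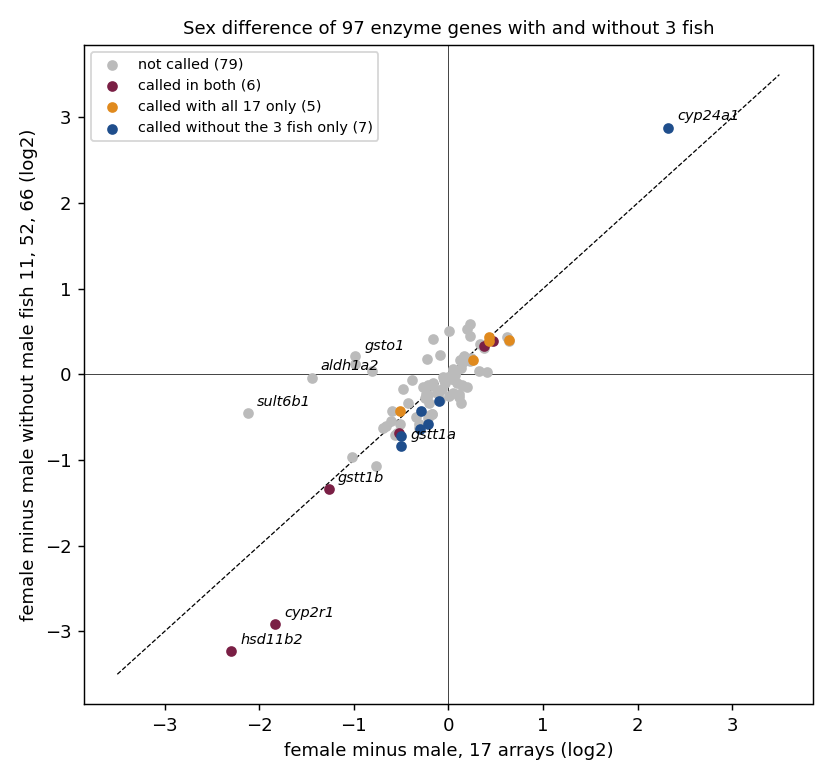
Female minus male difference (log2) of each of the 97 enzyme genes with all 17 arrays (x axis) against the difference without male fish 11, 52 and 66 (y axis), with the line of equality dashed. Colours give the calls: 6 genes in both fits, 5 only with all arrays, 7 only without the 3 fish and 79 in neither. Hsd11b2 and cyp2r1 lie below the line, aldh1a2 and gsto1 move close to 0, and sult6b1 moves from -2.12 to -0.45.

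Within each diet fewer genes passed, with 5 and 4 fish compared at 0% and 5 and 3 at 25%. At 0% carbohydrate 2 of the 97 genes differed between the sexes, against 3.33% of all probe sets. They were gstt1b at -1.57 ± 0.33 (adjusted p = 0.0161) and cyp26b1 at 0.41 ± 0.10 (adjusted p = 0.047), and the second passed in only 5 of 17 refits with 1 fish left out, those without female fish 24, 27 or 51 or male fish 52 or 54 (highest adjusted p of the rest 0.13). Cyp26b1 also did not pass with a trended and robust eBayes, with only these groups compared or with its probe sets averaged (adjusted p of 0.0673, 0.0731 and 0.156). Without fish 11, 52 and 66 neither passed (adjusted p of 0.0704 for gstt1b and 0.263 for cyp26b1), and 3 others were called, against 1.96% of all probe sets: cyp2r1 at -2.68, sult2st2 at -1.31 and gstt1a at -0.84, all lower in females. Groups did not overlap for 7 genes, against 8.48%. The extremes at 0% that did not pass were sult6b1 at -1.94 and aldh1a2 at -1.64 below, and cyp2aa4 at 1.34 above, a P450 gene with 3 high females (fish 8, 25 and 27 at 4.96, 5.67 and 5.31) among females at 3.40 and 3.45 and males between 3.02 and 3.53.

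At 25% carbohydrate 5 of the 97 genes differed, against 4.91% of all probe sets, and groups did not overlap for 12, against 11.5%. Hsd11b2 was at -3.20 ± 0.80 (9.21-fold, adjusted p = 0.0286), with every male above every female. Aldh4a1 was at -0.62 ± 0.16 (adjusted p = 0.0296). Cyp11a1.1, cyp17a1 and cyp26b1 were higher in females, at 0.57 ± 0.09, 0.73 ± 0.19 and 0.54 ± 0.11. With 1 fish left out, hsd11b2 did not pass without female fish 20, 49 or 51 or male fish 53 or 54 (highest adjusted p = 0.146), and aldh4a1 without female fish 3, 20 or 49 or male fish 53 or 54 (highest adjusted p = 0.159). Cyp26b1 did not pass without male fish 52 (adjusted p = 0.0628), and cyp17a1 passed in 4 of 17 refits, those without female fish 20, 24 or 49 or male fish 11 (highest adjusted p of the rest 0.111). With only these groups compared, hsd11b2, aldh4a1, cyp17a1 and cyp26b1 did not pass (adjusted p of 0.0808, 0.171, 0.225 and 0.0679). Quantile normalization ended the calls of aldh4a1 and cyp17a1 (adjusted p of 0.121 and 0.061), median centring that of cyp17a1 (0.0606), a trended and robust eBayes that of aldh4a1 (0.0587), and averaged probe sets that of cyp26b1 (0.119).

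Without fish 11, 52 and 66, 5 genes were again called at 25%, against 4.95% of all probe sets. Hsd11b2, aldh4a1 and cyp11a1.1 were among them, cyp2r1 at -3.14 (adjusted p = 0.000469) and gstt1a at -0.84 (adjusted p = 0.0221) were added, and cyp17a1 and cyp26b1 did not pass (adjusted p of 0.104 and 0.0653). With all fish, cyp24a1 had the highest difference at this diet, 3.84 ± 1.11, with every female above every male, and did not pass (adjusted p = 0.0623).

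For diet, enzyme genes were called about as often as probe sets at large. In females 2 of the 97 differed between diets, against 2.1% of all probe sets, and the groups did not overlap for 4, against 4.08%. Adh5, the glutathione-dependent alcohol dehydrogenase that clears formaldehyde, was at 10.12, 10.31, 10.22, 10.26 and 10.09 in females on 0% and at 9.40, 9.58, 9.45, 9.02 and 9.85 in females on 25%. Every female on 25% lay below every female on 0%. It fell by 0.74 on the log2 scale (SE 0.17, 1.67-fold, adjusted p = 0.0303), and the call was kept in 9 of 17 refits with 1 fish left out. It was lost without any of the 5 females on 0% and without female fish 3, 24 or 49 (highest adjusted p = 0.0843).

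In males adh5 was at 10.29, 9.57, 9.67 and 9.81 on 0% and at 8.82, 9.61 and 9.02 on 25%, with an overlap of fish 53 and 26. The male difference was -0.69 ± 0.21 and did not pass (adjusted p = 0.325). The diet differences of the sexes differed by -0.05 ± 0.27 (adjusted p = 0.996). The other alcohol dehydrogenase genes, adh8a and adh8b, differed by -0.02 and -0.05 in females.

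Cyp11a1.1 rose with carbohydrate in females by 0.43 ± 0.08 (adjusted p = 0.00367) and was kept in all refits with 1 fish left out. It did so beside the ovary markers, of which 12 of 13 were also higher in females on 25%, and their part in it was not tested. In males the gene differed by 0.05 ± 0.09 and the ovary markers passed in 0 of 13 cases. Cyp17a1 differed by 0.55 ± 0.17 in females and did not pass (adjusted p = 0.133).

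Hsd17b12a, whose mammalian counterpart serves the elongation of very long fatty acids, had the highest diet difference in both sexes. Females were at 2.96, 3.34, 2.96, 3.28 and 3.18 on 0% and at 4.16, 4.11, 4.87, 4.64 and 5.34 on 25%, with no overlap. Males were at 3.51, 2.69, 2.55 and 4.22 on 0% and at 5.92, 5.16 and 3.48 on 25%, where fish 54 overlapped the 0% fish. The differences were 1.48 ± 0.40 in females (adjusted p = 0.0881) and 1.61 ± 0.49 in males (adjusted p = 0.33), and neither passed. Without fish 11, 52 and 66 the female value, with a standard error of 0.29, passed (adjusted p = 0.0174). The signal lay above the array median on 8 of 17 arrays. Its paralog hsd17b12b differed by 0.14 ± 0.32 in females and 0.18 ± 0.39 in males.

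Cyp3a65 ran the other way in both sexes without passing. Females on 0% were at 8.23, 8.64, 8.67, 7.004 and 8.49 and females on 25% at 8.87, 6.12, 7.07, 6.04 and 5.59. Males on 0% were at 8.58, 8.22, 8.89 and 10.36 and males on 25% at 10.03, 7.43 and 5.19. Most fish on 25% were lower, and fish 3 and 52 were as high as the 0% fish. The highest fish, 66 and 52, are among those with high intestinal markers, whose part in cyp3a65 was not tested. Without fish 11, 52 and 66 the male diet difference was -2.24 ± 0.97 and did not pass (adjusted p = 0.55). The female minus male difference was -0.81 ± 0.61 with all fish and 0.04 ± 0.57 without those 3. The differences were -1.47 ± 0.78 in females and -1.46 ± 0.95 in males, and -1.09 on the second probe set in females.

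In males 0 of the 97 genes were called for diet, against 0.116% of all probe sets, and limma gave an unadjusted p under 0.05 for 7, against 8.18%. Groups did not overlap for 5 genes, against 6.7%. For the interaction 0 genes were called, against 0.697%, and 5 had an unadjusted p under 0.05, against 5.99%. The extremes of the interaction were cyp24a1 at 3.04 ± 1.51 and hsd11b2 at -1.82 ± 1.08, and neither passed (adjusted p of 0.874 and 0.961). With 3 and 4 males, diet differences in males had standard errors of 0.49 for hsd17b12a and 0.95 for cyp3a65.

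**Figure D5:**
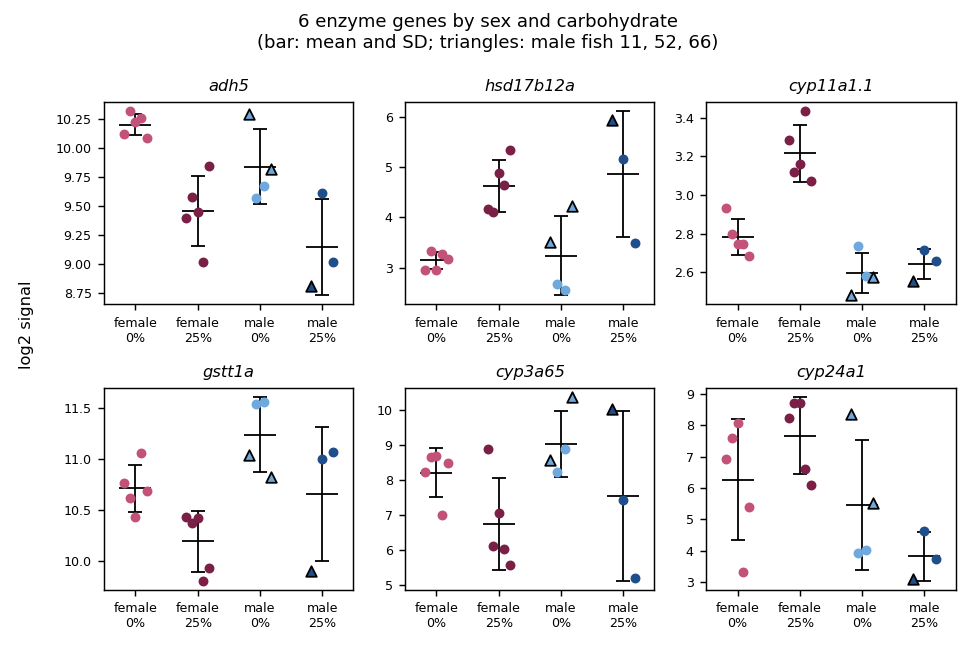
Log2 signal per fish of adh5, hsd17b12a, cyp11a1.1, gstt1a, cyp3a65 and cyp24a1, by sex and carbohydrate, with the group mean and SD as bars and a separate y axis for each gene. Triangles mark male fish 11, 52 and 66. The 5 females on 25% lie below the 5 on 0% for adh5 and gstt1a and above them for hsd17b12a and cyp11a1.1.

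The plot of the diet genes also shows gstt1a, for which the 5 females on 25% (9.81 to 10.43) all lay below the 5 on 0% (10.43 to 11.06) without passing, and the closest pair, fish 3 and 10, were level when rounded: the difference was -0.52 ± 0.22 (adjusted p = 0.338). Among P450 genes of families 1 to 3, 19 of 24 lay below 0 for diet in females with a median of -0.08, and none was called. The lean was not theirs alone: 59 of the 97 enzyme genes lay below 0, with a median of -0.05. The median of all probe sets was -0.03. In males 12 of the 24 P450 genes lay below 0, with a median of 0.00.

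Probe sets of one gene did not always agree. The third probe set of cyp2ad2 was higher in females by 0.98 ± 0.24 (adjusted p = 0.014), while the brightest differed by 0.19. For cyp2y3 the third differed by 0.30 ± 0.09 (adjusted p = 0.042) and the brightest by -0.16. The dimmer probe set of cyp27a1.4 differed by -0.33 and did not pass. Hsd11b2, cyp2r1, gstt1b, aldh4a1, adh5 and hsd17b12a had 1 probe set each.

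Of the 97 genes, 17 lay next to another in the RefSeq gene order, in 8 runs, and near-identical neighbours can share probes. Neighbours did not move alike throughout. In the run of cyp2p8, cyp2p9 and cyp2p10 the sex differences were 0.20, -1.02 and -0.03, with cyp2p9 not passing. Sult2st1 and sult2st2 were at 0.06 and -0.50. Of these, sult2st1 lay above its array's median on 0 of 17 arrays and cyp2p8 on 9. Other pairs lay closer together: gsto1 and gsto2 at -0.98 and -0.99, and adh8a and adh8b at -0.21 and -0.27. Gsto1 and adh8a were dim, above the median on 3 and 1 of 17 arrays. Cyp46a1.2 and cyp46a1.4, copies of the cholesterol hydroxylase of the mammalian brain, were at 0.01 and -0.17.

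Other genes of these pathways were read from lists of receptors, cofactor supply, further enzymes and transporters. Their calls are to be read against the 13.6% of all probe sets called for sex and the 2.1% called for diet in females. Of 13 measured receptor and sensor genes, 2 were lower in females and none higher: hnf4a, a nuclear receptor that drives many liver genes, at -0.72 ± 0.15 (adjusted p = 0.00552), and ahr1a, a copy of the aryl hydrocarbon receptor, at -0.44 ± 0.10. Hnf4a ran from 5.84 to 6.86 in females and from 6.49 to 7.58 in males, and only fish 52 among the males lay within the female range. Of 17 genes for cofactors and conjugate donors, ugdh, which makes the glucuronic acid donor, was lower at -0.99 ± 0.29 (adjusted p = 0.0352), as was the dim slc35b2, a sulfate donor carrier. For ugdh the highest fish were 52 and 66, at 8.21 and 7.55.

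Of 13 further enzymes srd5a3 was higher in females at 0.33 ± 0.09, and rdh10b, which turns retinol into retinal, rose with carbohydrate in females by 1.11 ± 0.20 (adjusted p = 0.00502). Of 7 transporter genes abcc4, an exporter of conjugates, was lower in females at -1.20 ± 0.24 (adjusted p = 0.0037). The medians of these lists for sex were 0.05, -0.18, -0.01 and -0.12, against 0.01 for all probe sets. In males none of these 4 lists held a gene called for diet.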

How the data were processed

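Liver RNA of 17 zebrafish was measured on Affymetrix arrays, 1 per fish. The values are log2 signals that the authors had already normalized. Their range gave the log base. Per the submitters' processing notes the tools were MAS5, RMA, GCRMA and PLIER, and which of them gave the deposited values is not stated. The genome build and probe-level intensities were not used here.

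Of the probe sets, 115 controls were left out. Symbols came from the platform annotation, and all 97 enzyme genes matched RefSeq by Entrez ID. The 4 group means were fitted in 1 model over the 17 arrays with limma 3.58.1 (lmFit and eBayes) in R 4.3.3. Sex was compared with diets averaged and within each diet, diet within each sex, and a further contrast took the interaction. Benjamini-Hochberg adjustment ran over 15502 probe sets, with no filter. The fit was also run on simulated independent values with added shifts. Such data hold no tissue marker differences between fish, so that run says nothing about their part in the calls. Arrays give no counts, so their number limits precision. No batch is labelled, and each fish is a biological replicate per the labels.

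The rule was to name genes past 0.05, the extreme differences of each contrast (3 at each end), the brightest gene of each family and single fish far from their group. It was not carried through for every gene. Among those that fell under it and are not described above are hsd17b3, aldh9a1b, akr7a3, ephx1 and cyp4v2b. Genes named outside this rule were chosen after their values were seen. The members, lists, rules and alternatives were chosen with earlier results of these data known. Alternatives were quantile normalization, median centring, brighter probe sets only, array weights, a trended and robust eBayes, a fit of the compared groups alone, averaged probe sets per gene, and leaving out each fish in turn or male fish 11, 52 and 66 together.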

Additional observations from a re-analysis of the deposited data

Results flagged for a closer look

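In groups of 4 or 5 fish, 20 of 291 tests found the highest or lowest fish far from the rest of its group by Dixon's criterion, where chance gives about 1 in 20. Female fish 3, on 25% carbohydrate, was flagged for 4 genes and stood high for each: cyp2ad2 at 10.94, cyp26c1 at 3.53, cyp19a1b at 3.42 and cyp2k8 at 2.76, of which cyp2ad2 alone lay above the median on all arrays. Female fish 20, also on 25%, was high for cyp2aa4 at 6.35, where the other 4 fish of its group reached at most 3.39. Female fish 49 was high for adh8a at 3.34.

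Among females on 0%, fish 25 was low for cyp3a65 at 7.004 and adh8a at 2.81 and high for cyp2r1 at 3.52, the highest female value of that gene. Fish 27 was low for gstk1 at 6.42, a kappa-class glutathione transferase, and high for gsto2 at 4.66. Fish 7 was high for aldh1a2 at 4.04, and fish 8 low for sult1st4 at 6.79.

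Among males on 0%, fish 11 was low for hsd11b2 at 4.64, for cyp2k18 at 4.06, where the other 3 males lay between 7.05 and 7.57, and for the dim cyp2k8 at 2.21. Fish 66 was low for aldh2.2 at 7.29 and high for sult1st3 at 4.32. Fish 11 and 66 carried the high intestinal markers. Fish 30 was high for hsd17b12b at 7.27, and fish 26 for sult1st1 at 3.53. Males on 25% numbered 3 and were not tested.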

How the results depend on the processing

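No paired analysis was possible because the groups share no fish numbers. With all arrays 11, 2, 5, 2, 0 and 0 of the 97 genes were called for sex averaged, sex at 0%, sex at 25%, diet in females, diet in males and the interaction. Leaving out 1 fish gave 8 to 15, 1 to 3, 2 to 6, 1 to 3, 0 to 0 and 0 to 0. The count for sex averaged was 8 without female fish 7, and that at 25% was 2 without male fish 53 or 54. For sex averaged the other alternatives gave 10 to 14. For sex at 0% the count was 1 with a trended and robust eBayes, 4 with array weights, 1 with only the groups compared and 1 with averaged probe sets. For sex at 25% it was 3 under quantile normalization and 2 with only the groups compared. For diet in females it was 1 among the brighter probe sets, where 73 of the 97 genes were tested and cyp11a1.1 was not. The cause of the other changes was not tested. None of 20 single-gene results changed sign in 484 refits. Beside leave-one-out, 9 passed under every alternative run for them. Of the 20, 8 passed in every leave-one-out refit. The number of arrays, 3 and 4 in the male groups, and dim probe sets limit what can be told.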
